A study of Bos taurus with 15 samples.

Results

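Chemokines are small secreted proteins that steer migrating leukocytes, and their receptors are G protein-coupled receptors on the cells that respond. Of the 32671 gene entries in the deposited table of bovine endometrium, 51 (0.156%) carried a chemokine or chemokine receptor name. They were chosen by name alone, as every entry called CCL, CXCL, CCR or CXCR followed by a number and the genes XCL1, XCR1, CX3CL1 and CX3CR1. This gave 33 ligands and 18 receptors. Biopsies of this uterine lining came from 15 heifers on day 14 of pregnancy, after the uterus was flushed, and each heifer gave 1 RNA library. The labels put 5 heifers in each fertility class, High-fertile, Sub-fertile and Infertile, written HF, SF and IF with a replicate number in the plots. The replicate numbers follow the order of the records and pair no animals. All 15 heifers went through the same hormonal synchronisation, with further GnRH and estradiol where estrus was not seen, and received an embryo produced in vivo on day 7. No breed, age, genotype or rule for assigning the classes is given in the sources used here, and neither is the state of the embryo at biopsy.

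In the uterus, chemokines are made by epithelium, stroma, vessels and immune cells, and they are known for placing natural killer cells, macrophages and T cells around implantation. Inflammatory chemokines are induced by infection, injury or interferon, while homeostatic chemokines are made constantly and direct routine traffic. In ruminants the conceptus secretes interferon tau around this stage, and CXCL10 is among the chemokines known to respond to interferons. The roles given for single genes are those known from human and mouse.

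Libraries held 38017136 to 62858724 counted reads, and the 51 genes together took 0.0368 to 0.0701% of them. Markers of the labelled tissue were present in every library, with EPCAM, of epithelium, at 277 to 777 CPM (counts scaled for library size and composition) and COL1A1, of stroma, at 630 to 6890 CPM. Infertile replicate 2 stood apart from the other 14 libraries in neutrophil markers. The 14 neutrophil and eosinophil markers in the table summed to 725 CPM there and to 22.3 to 198 CPM elsewhere, and 9 of the 14 were at their highest in that library. S100A12, a neutrophil calcium-binding protein, was at 121 CPM there and at 2.08 to 11.2 CPM in the others. CATHL1 was at 0 in every library. High-fertile replicate 1 held the highest CPM of 12 of the 18 B and plasma cell markers in the table. MS4A1, the B cell surface protein CD20, was at 20.9 CPM there against at most 1.20 CPM elsewhere. The 18 markers summed to 110 CPM there and to 16.3 to 255 CPM elsewhere, so their sum did not stand apart. The labels name no batch. Clustering of pseudogene and ribosomal RNA counts split the libraries into sets of 8, 5 and 2, called technical sets here. The smallest was High-fertile replicate 1 with Infertile replicate 2, the libraries with the marker peaks just given. The word technical is a name only. Whether the split came from handling or from the tissue was not tested. Some differences are also given within the set of 8. Because biopsies mix cell types, fewer cells of a type and less RNA per cell cannot be told apart in any of these values.

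Per gene length, a few chemokines led the ligand signal. Median deposited FPKM (fragments scaled for gene length and library size) was highest for CXCL12 (44.2, range 20.1 to 72.6), CCL14 (37.9, 13.8 to 60.8), CXCL3 (36.4, 25.8 to 66.8) and CXCL16 (30.6, 18.3 to 47.5). CX3CL1 followed at 14.5, and CXCL14, CCL5, CCL25, CCL16, CXCL10 and CXCL9 lay between 3.69 and 6.05. The ranges of the leading 4 overlapped, so their order was not separated beyond the spread between heifers. Each of the remaining 22 ligands had a median FPKM of 2.05 or less. Among receptors CXCR4 was far above the rest, with a median FPKM of 23.1 (8.27 to 32.5) and a median 69.3% of the summed receptor FPKM of a library (33.9 to 76.9%). CX3CR1 (2.51 FPKM, 1.90 to 3.58) and CXCR6 (2.02 FPKM, 1.54 to 3.01) came next, with overlapping ranges. The most constant member was CCL25, with a coefficient of variation over the 15 libraries of 12.1% in CPM, and the most variable was CXCL5, at 292%.

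**Figure D1:**
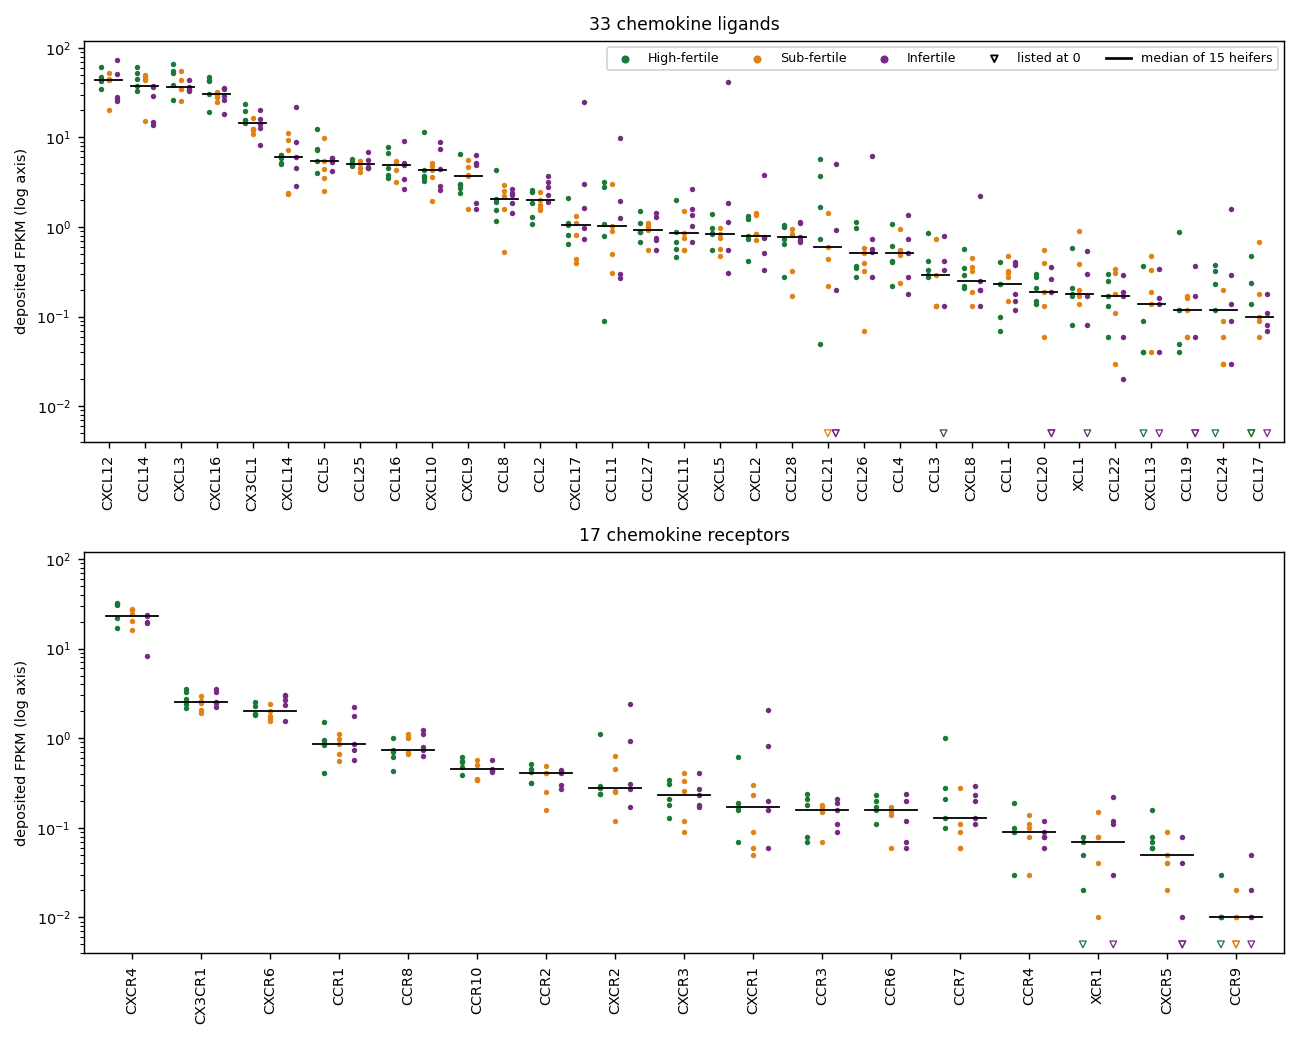
Deposited FPKM (log axis) of 33 ligands and 17 receptors, ordered by their median over 15 heifers, with 1 point per heifer, coloured by class, open triangles for values listed at 0 and a bar at the median. CXCL12, CCL14, CXCL3 and CXCL16 lead the ligands with medians of 30.6 to 44.2 FPKM, and CXCR4 leads the receptors with a median of 23.1 FPKM.

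Counts were high enough for testing in 43 members, 28 ligands and 15 receptors. The 8 left out were CCL3, CCL17, CCL19, CXCL13, XCL1, CCR9, CXCR5 and XCR1, which had at most 36 counts in any library and were at 0 in at least 1 library each. A level under 3 counts, 0.0492 to 0.0783 CPM by library, was treated as below detection, which covers counting error only. CCL19, a ligand of CCR7 that brings dendritic cells and naive T cells together, reached 0.716 CPM in High-fertile replicate 4 and was at 0 in 2 Infertile libraries. XCL1 and its receptor XCR1, which link lymphocytes with cross-presenting dendritic cells, stayed at or under 0.410 and 0.587 CPM. CXCL13 and its receptor CXCR5, which form B cell follicles, stayed at or under 0.510 and 0.420 CPM, and CXCR5 was highest in High-fertile replicate 1. CCL3, a macrophage inflammatory protein, stayed at or under 0.304 CPM, CCL17, a ligand of CCR4, at or under 0.341 CPM and CCR9, the receptor of CCL25, at or under 0.273 CPM.

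No member passed an adjusted p of 0.05 in any comparison of fertility classes, and no gene of the 19962 tested did. In Sub-fertile against High-fertile heifers the smallest adjusted p of a member was 0.360, in Infertile against High-fertile it was 0.435, and in Infertile against Sub-fertile it was 0.998. At an unadjusted p under 0.05, 2 of 43 members (4.65%) were called in Sub-fertile against High-fertile, where 13.7% of all tested genes were, 6.58% higher and 7.14% lower. These 2 were CCR7 and CX3CL1, both lower in Sub-fertile heifers, and the count was 0 without Sub-fertile replicate 1. In Infertile against High-fertile 3 members (6.98%) were called, against 11.0% of all genes, 7.14% higher and 3.89% lower. They were CXCL5 and CXCL17, higher in Infertile heifers, and CCL14, lower. Infertile against Sub-fertile gave 5 members (11.6%), against 2.63% of all genes, 1.91% higher and 0.721% lower, and all 5, CXCL17, CXCL5, CCL26, CXCR1 and CCL24, were higher in Infertile heifers. That count was 0 without Infertile replicate 2, and the count for Infertile against High-fertile was then 1, CCL14, while it was 6 without High-fertile replicate 3. Asked jointly, a difference anywhere between classes was called for CXCL17, CCL26 and CXCL5 (6.98% of members, 8.42% of all genes). By DESeq2 no member passed an adjusted p of 0.05 either, and 2, 3 and 6 members were called at an unadjusted p under 0.05 in the same order of comparisons. For DESeq2 and the fits with a library left out, the share of all genes at an unadjusted p under 0.05 was not computed. The comparisons share the libraries of each class.

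**Figure D2:**
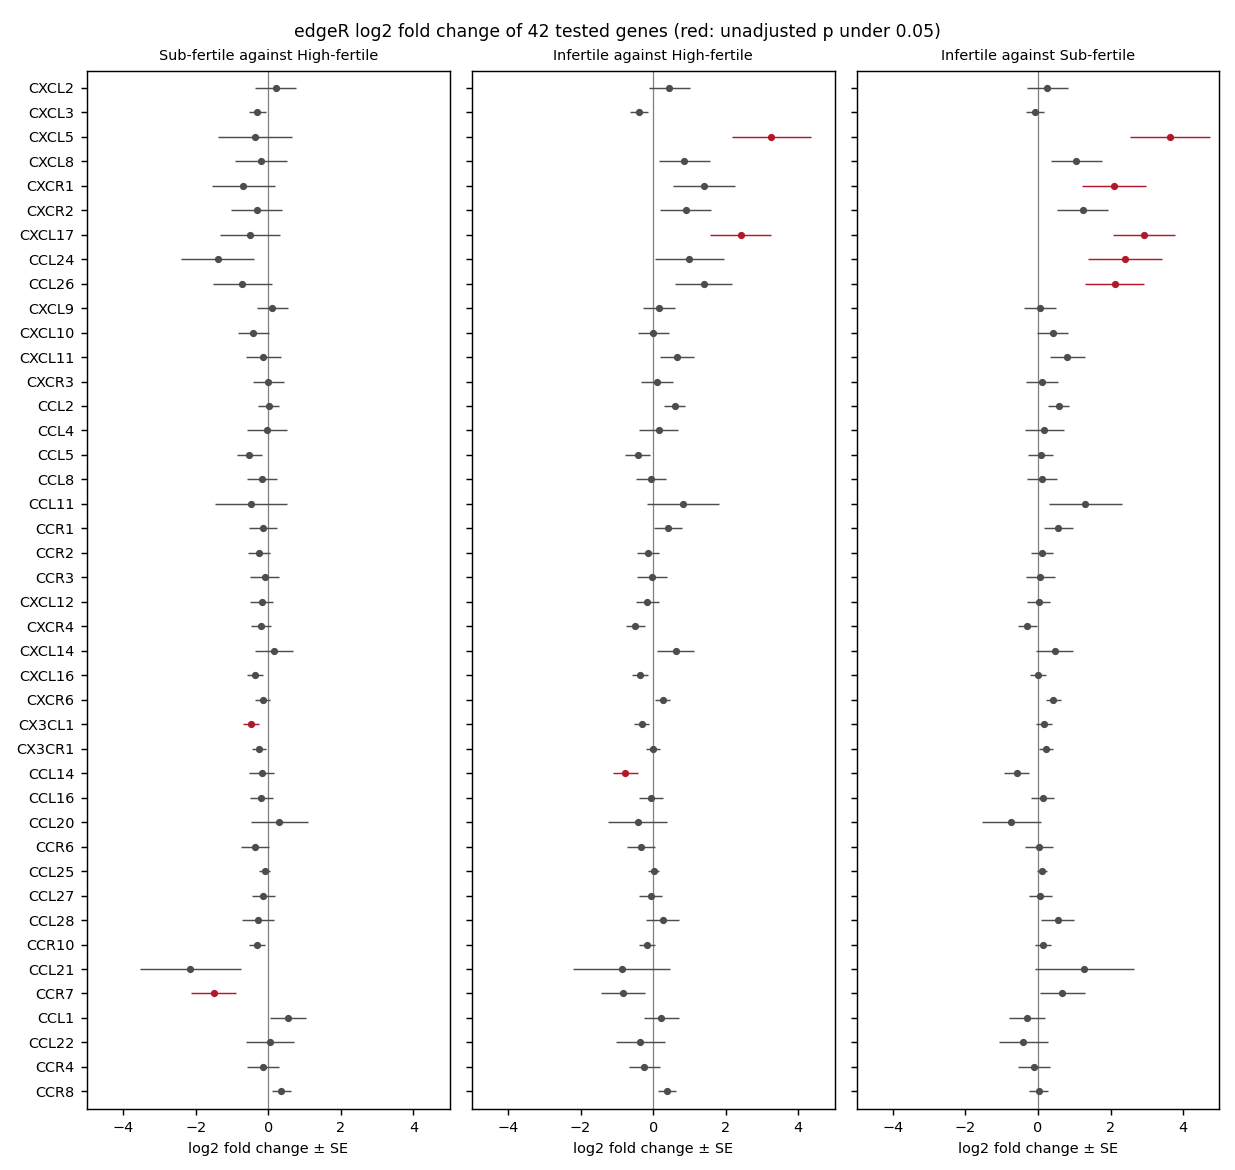
Fitted log2 fold change of 42 tested genes with its standard error from edgeR in the 3 class comparisons, in red where the unadjusted p was under 0.05. Red points lie at CCR7 and CX3CL1 in the left panel, CXCL5, CXCL17 and CCL14 in the middle and CXCL5, CXCL17, CCL26, CXCR1 and CCL24 on the right, and none passed an adjusted p of 0.05.

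No member separated any pair of classes, since the ranges of the 5 heifers overlapped for all 43, while 5.07%, 2.22% and 0.205% of all tested genes did so in Sub-fertile against High-fertile, Infertile against High-fertile and Infertile against Sub-fertile. The fitted log2 difference between Sub-fertile and High-fertile was below 0 in 34 of 43 members, where 49.0% of all genes were below 0. Its median was -0.19 over the members, -0.19 over the 28 ligands and -0.20 over the 15 receptors, against 0.01 over all genes. Marker lists of several cell types were also mostly below 0 in this comparison, with 16 of 16 tested B and plasma cell markers (median -2.20), 18 of 19 of macrophages and dendritic cells (-0.46), 20 of 27 of T and NK cells (-0.22), 19 of 21 of endothelium (-0.52) and 13 of 14 of stroma (-0.67). Neutrophil and eosinophil markers had 6 of 9 below 0 (-0.36), luminal and glandular epithelium 9 of 12 (-0.14) and mast cells 4 of 7 (-0.02). Ciliated epithelium went the other way, with 1 of 10 below 0 (0.76), as did blood, with 1 of 4 (0.22). The part of these lists in the members' differences was not tested. The 43 differences come from the same libraries and are not independent observations. Infertile against High-fertile differences were below 0 in 21 of 43 members, where 46.5% of all genes were, with a median of 0.01 against 0.04. Infertile against Sub-fertile differences were above 0 in 35 of 43, where 54.7% of all genes were, with a median of 0.16 against 0.03. Leaving out Infertile replicate 2 turned the median of Infertile against High-fertile to -0.12 and took that of Infertile against Sub-fertile to 0.09. Without that library 18 of 44 members were below 0 in Infertile against Sub-fertile, against 8 of 43 with all libraries, so the excess above 0 rested largely on it. In the 8-library set 22 of 46 were below 0, and by limma-voom with sample quality weights 20 of 43.

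Of the neutrophil-attracting CXC chemokines and their receptors, CXCL2, CXCL5, CXCL8, CXCR1 and CXCR2 were highest in 1 heifer, Infertile replicate 2, and CXCL3 was not. CXCL5, which recruits neutrophils through CXCR2 and is made by activated epithelium, measured 2.10, 0.833, 1.29, 1.47 and 1.26 CPM in High-fertile replicates 1 to 5. In Sub-fertile replicates 1 to 5 CXCL5 was at 1.46, 0.834, 1.09, 0.721 and 1.28 CPM, and in Infertile replicates 1 to 5 it was at 1.80, 60.7, 0.453, 0.818 and 2.84 CPM. A single heifer, Infertile replicate 2, was 21.4 times the next highest library, and the other 4 Infertile heifers overlapped both other classes. The edgeR log2 difference was 3.26 ± 1.08 (SE, adjusted p = 0.435) for Infertile against High-fertile and 3.63 ± 1.10 (adjusted p = 0.998) for Infertile against Sub-fertile, and without Infertile replicate 2 it was 0.08 and 0.45. The Sub-fertile against High-fertile difference of CXCL5 was not among the 6 smallest p values.

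CXCL8, or interleukin 8, the main neutrophil attractant in cattle, was low throughout. Its CPM was 0.519, 0.317, 0.858, 0.438 and 0.325 in High-fertile, 0.470, 0.533, 0.273, 0.197 and 0.683 in Sub-fertile and 0.398, 3.28, 0.295, 0.195 and 0.306 in Infertile replicates 1 to 5. Again Infertile replicate 2 was the only library above 1 CPM, and the remaining values of the classes overlapped. In the edgeR fit its log2 difference was -0.20 ± 0.710 for Sub-fertile against High-fertile (adjusted p = 0.897), 0.86 ± 0.702 for Infertile against High-fertile (adjusted p = 0.606) and 1.06 ± 0.709 for Infertile against Sub-fertile (adjusted p = 0.998). Without Infertile replicate 2 the last 2 were -0.72 and -0.52.

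CXCL2 was also highest in Infertile replicate 2, at 4.28 CPM against 0.363 to 1.66 CPM in the others. CXCL3 was at 26.5 to 70.3 CPM over all libraries and at 37.6 CPM in Infertile replicate 2, inside the range of every class. The receptors of these ligands are CXCR1 and CXCR2, carried mainly by neutrophils. CXCR2 was at 1.14, 0.992, 4.48, 0.975 and 1.18 CPM in High-fertile, 1.83, 0.486, 1.00, 1.07 and 2.64 CPM in Sub-fertile and 0.754, 9.68, 3.63, 1.25 and 1.12 CPM in Infertile replicates 1 to 5. Infertile replicate 2 was highest, High-fertile replicate 3, Infertile replicate 3 and Sub-fertile replicate 5 followed, and the classes overlapped. CXCR1 ran in the same libraries, at 1.07 CPM in High-fertile replicate 3, 3.45 CPM in Infertile replicate 2 and 1.36 CPM in Infertile replicate 3, and at 0.0910 to 0.524 CPM in the other 12. Its edgeR log2 difference was 2.10 ± 0.875 (adjusted p = 0.998) for Infertile against Sub-fertile, 1.01 without Infertile replicate 2 and, with the opposite sign, -0.43 ± 1.16 within the 8-library set. S100A8, S100A9 and the granulocyte colony-stimulating factor receptor CSF3R were at 26.2, 25.0 and 10.6 CPM in Infertile replicate 2, and CSF3R was at 10.1 CPM in High-fertile replicate 3. Their part in the CXCR1 and CXCR2 values was not tested.

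**Figure D3:**
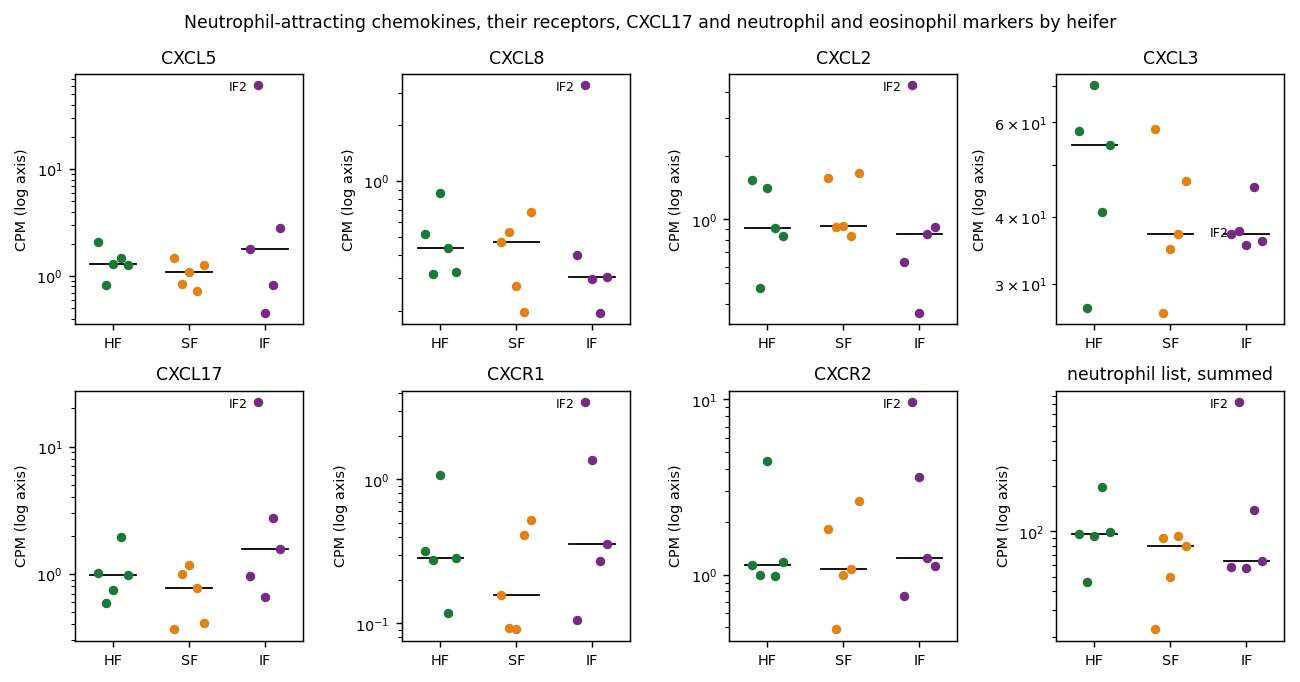
CPM (log axis, each panel on its own scale) of CXCL5, CXCL8, CXCL2, CXCL3, CXCL17, CXCR1 and CXCR2 and the summed CPM of 14 neutrophil and eosinophil markers, with 1 point per heifer and a bar at the class median (HF High-fertile, SF Sub-fertile, IF Infertile). Infertile replicate 2 (IF2) is the highest point in every panel but CXCL3, with 60.7 CPM of CXCL5, 22.4 CPM of CXCL17 and 725 CPM of the marker list.

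CXCL17 and the eotaxins CCL24 and CCL26 were high in the same heifer. CXCL17, a chemokine of mucosal surfaces, measured 1.01, 0.595, 0.750, 1.95 and 0.976 CPM in High-fertile, 0.366, 0.996, 1.18, 0.770 and 0.410 CPM in Sub-fertile and 0.964, 22.4, 0.657, 2.73 and 1.56 CPM in Infertile replicates 1 to 5. Infertile replicates 2 and 4 were the highest 2 libraries, and the other 3 Infertile values lay among those of High-fertile heifers. Fitted by edgeR, its log2 difference was 2.42 ± 0.841 (adjusted p = 0.435) for Infertile against High-fertile and 2.92 ± 0.861 (adjusted p = 0.998) for Infertile against Sub-fertile, and 0.48 and 0.98 without Infertile replicate 2. CCL26 was at 4.25 CPM in Infertile replicate 2 and at 0.0455 to 0.804 CPM elsewhere, and CCL24 was at 2.60 CPM there and at 0 to 0.637 CPM elsewhere. Their Infertile against Sub-fertile differences were 2.11 ± 0.821 (edgeR adjusted p = 0.998) and 2.40 ± 1.02 (adjusted p = 0.998), and 0.51 and 0.81 without that library. For Infertile against High-fertile CCL26 had a log2 difference of 1.39 ± 0.792 (adjusted p = 0.50), which was -0.22 without it. CCL24 and CCL26 lie next to each other in the cattle annotation and both act on CCR3, a receptor of eosinophils. CCR3 itself was at 0.404 CPM in Infertile replicate 2, within its range of 0.139 to 0.517 CPM over all libraries. CCL11, the first named eotaxin, followed another pattern, with 13.7 CPM in Infertile replicate 1, 2.55 CPM in Infertile replicate 2 and 0.122 to 4.21 CPM in the other 13.

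The neutrophil-attracting genes and the eotaxins were not the only members at their peak in Infertile replicate 2. In all, 13 of the 43 tested members had their highest CPM there, the others being CCL4, CCR1, CXCL11, CXCL14 and CCR6, and CXCR4 alone had its lowest there. High-fertile replicate 5 held the highest CPM of 8 members, CX3CL1, CCL14, CCL8, CXCL16, CCR4, CCR2, CXCL9 and CXCL10. Sub-fertile replicate 1 held the lowest CPM of 7 and the highest of none. The shares of all tested genes with their highest or lowest CPM in these libraries were not computed. These counts therefore cannot be read as particular to chemokine genes.

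**Figure D4:**
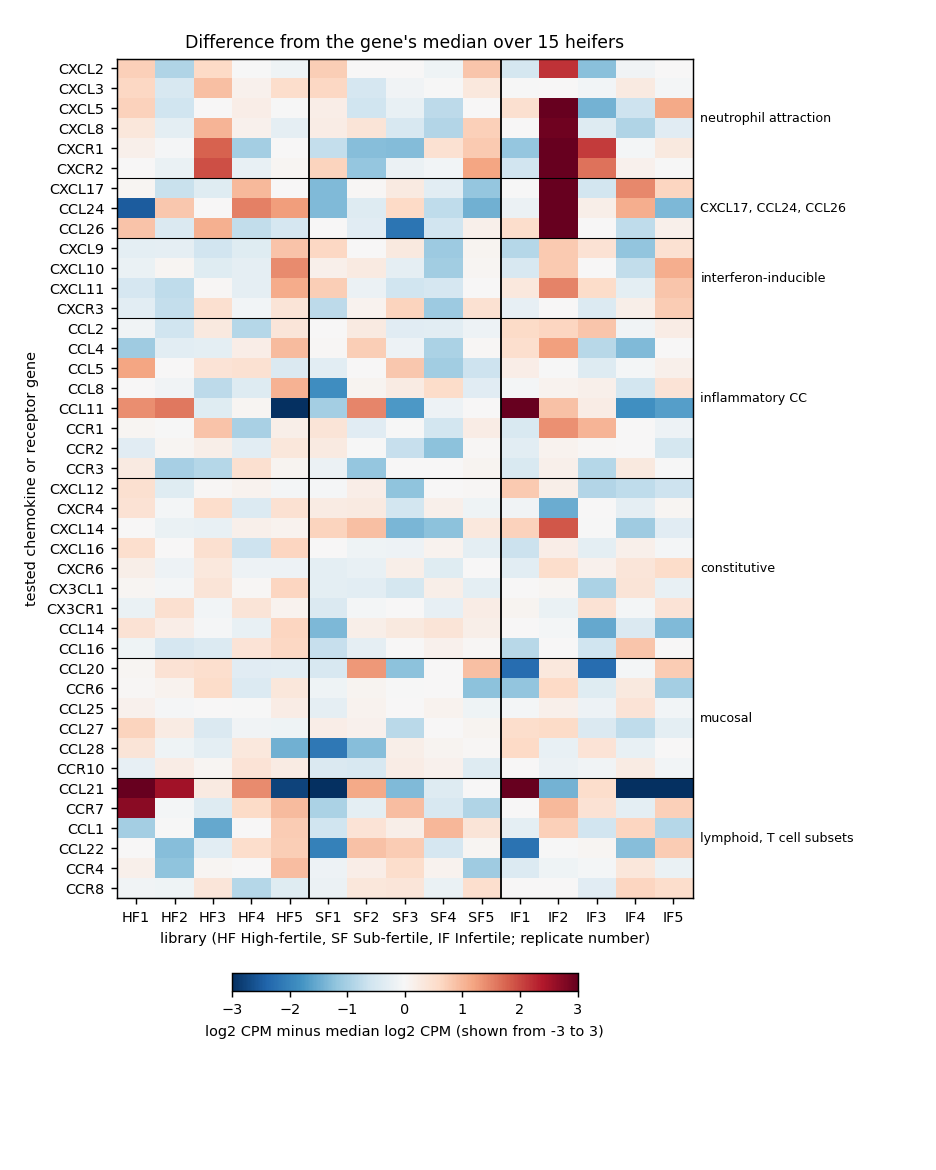
Log2 CPM of each of 42 tested genes minus its median over 15 heifers, in columns by heifer and rows grouped by role, with colours limited to the range from -3 to 3. The column of IF2 is dark red for CXCL5, CXCL8, CXCR1, CXCR2, CXCL17, CCL24 and CCL26 and blue for CXCR4, and no row changes colour at a class border.

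The interferon-inducible chemokines CXCL9, CXCL10 and CXCL11, which draw activated T and natural killer cells through CXCR3 and lie together in the cattle annotation, had overlapping levels in the 3 classes. CXCL10 measured 4.38, 5.2, 3.88, 4.20 and 13.6 CPM in High-fertile, 5.61, 6.11, 4.14, 2.41 and 5.24 CPM in Sub-fertile and 3.60, 8.74, 5.03, 3.0 and 10.8 CPM in Infertile replicates 1 to 5. High-fertile replicate 5, Infertile replicate 5 and Infertile replicate 2 were the 3 highest and Sub-fertile replicate 4 was the lowest, so the ranges of the classes overlapped. For edgeR the log2 difference of CXCL10 was -0.41 ± 0.428 (adjusted p = 0.619) for Sub-fertile against High-fertile, 0.00 ± 0.427 (adjusted p = 0.999) for Infertile against High-fertile and 0.41 ± 0.429 (adjusted p = 0.998) for Infertile against Sub-fertile. Without High-fertile replicate 5 the first was 0.09 and the second 0.50.

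CXCL9 was at 1.21, 1.25, 1.00, 1.15 and 2.75 CPM in High-fertile, 2.32, 1.51, 1.87, 0.688 and 1.59 CPM in Sub-fertile and 0.817, 2.62, 2.06, 0.642 and 2.09 CPM in Infertile replicates 1 to 5. As with CXCL10, High-fertile replicate 5 was the highest library. Its edgeR log2 differences were 0.11 ± 0.434 (adjusted p = 0.903), 0.16 ± 0.434 (adjusted p = 0.896) and 0.05 ± 0.434 (adjusted p = 0.998) for Sub-fertile against High-fertile, Infertile against High-fertile and Infertile against Sub-fertile. CXCL11 lay between 0.159 and 0.915 CPM, with Infertile replicate 2 highest and High-fertile replicate 5 next. Those for CXCL11 were -0.14 ± 0.476 (adjusted p = 0.885), 0.67 ± 0.469 (adjusted p = 0.557) and 0.81 ± 0.473 (adjusted p = 0.998) in the same order. CXCR3, their shared receptor, was low, at 0.0983 to 0.460 CPM.

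No relation of these chemokines with the other interferon-stimulated genes passed the test. The mean log2 CPM of 36 such genes was highest in Sub-fertile replicate 4 (5.78), where CXCL10 was lowest, and 16 of the 36 had their highest CPM there. MX1, an antiviral GTPase induced by interferon tau, was at 564 CPM in Sub-fertile replicate 4 and at 145 CPM in Infertile replicate 2, where CXCL10 was 8.74 CPM. Over the 15 libraries Pearson r with the list was -0.141 for CXCL9 (permutation p = 0.612, adjusted 0.688, Spearman rho -0.0536, p = 0.853), 0.0531 for CXCL10 (p = 0.851, adjusted 0.851, rho 0.0786, p = 0.782) and -0.277 for CXCL11 (p = 0.317, adjusted 0.505, rho -0.389, p = 0.153). Without the 2 libraries farthest from the median of each chemokine r was 0.200, -0.481 and -0.477, and within the largest technical set of 8 libraries it was 0.188, 0.281 and 0.0870. High-fertile replicate 5 and Infertile replicate 5, the 2 libraries with the most CXCL10, had list means of 5.70 and 5.06 and MX1 at 454 and 265 CPM.

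Among the inflammatory CC chemokines, CCL2, the main attractant of monocytes through CCR2, had the smallest p for Infertile against High-fertile after the 3 genes already named. CCL2 was at 1.43, 1.01, 1.89, 0.836 and 1.99 CPM in High-fertile, 1.54, 1.88, 1.21, 1.23 and 1.39 CPM in Sub-fertile and 2.30, 2.45, 2.79, 1.42 and 1.81 CPM in Infertile replicates 1 to 5. Infertile replicates 1 to 3 were the 3 highest libraries and the other 2 Infertile heifers lay within both other classes. The edgeR log2 difference was 0.59 ± 0.284 (adjusted p = 0.458) for Infertile against High-fertile, 0.57 ± 0.284 (adjusted p = 0.998) for Infertile against Sub-fertile and 0.01 ± 0.284 (adjusted p = 0.985) for Sub-fertile against High-fertile. CCR2 was at 0.393 to 1.24 CPM and did not rank among the 6 smallest p values.

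CCL5, an attractant of T cells and eosinophils that T and natural killer cells also make, was at 9.10, 3.99, 5.31, 5.49 and 2.93 CPM in High-fertile, 3.21, 3.98, 7.05, 1.92 and 2.60 CPM in Sub-fertile and 4.59, 3.96, 3.04, 3.82 and 4.44 CPM in Infertile replicates 1 to 5. High-fertile replicate 1 was highest and Sub-fertile replicate 4 lowest. In the edgeR fit its log2 difference was -0.52 ± 0.347 (adjusted p = 0.443) for Sub-fertile against High-fertile, -0.43 ± 0.347 (adjusted p = 0.599) for Infertile against High-fertile and 0.08 ± 0.347 (adjusted p = 0.998) for Infertile against Sub-fertile, and the first 2 were -0.24 and -0.16 without High-fertile replicate 1.

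CCL8, which acts on monocytes and T cells, ranged from 0.444 CPM in Sub-fertile replicate 1 to 3.64 CPM in High-fertile replicate 5. Its edgeR log2 differences were -0.17 ± 0.421 (adjusted p = 0.850), -0.06 ± 0.421 (adjusted p = 0.965) and 0.11 ± 0.422 (adjusted p = 0.998) for Sub-fertile against High-fertile, Infertile against High-fertile and Infertile against Sub-fertile. CCL4, a macrophage inflammatory protein, was at 0.117 to 0.893 CPM. CCR1, a receptor of CCL5 and related ligands on monocytes and neutrophils, was at 1.11 to 5.89 CPM, with the highest values in Infertile replicates 2 and 3, the libraries in which CXCR1 and CXCR2 were also high. Near copies of CCL3, CCL14 and CCR1 stand in the table under LOC numbers, and GRO1 is closely related to CXCL2 and CXCL3, so counts of these members could have been split between copies and are uncertain. The sequences of these genes were not compared here.

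CXCL12 and its receptor CXCR4, the best known homeostatic pair, had the highest median FPKM of ligands and receptors and overlapping levels in the 3 classes. CXCL12 was at 353, 197, 259, 274 and 243 CPM in High-fertile, 251, 294, 111, 255 and 260 CPM in Sub-fertile and 442, 286, 139, 152 and 167 CPM in Infertile replicates 1 to 5. Infertile heifers spanned the widest range, including both the highest library and 3 of the 4 lowest. Fitted by edgeR, its log2 difference was -0.18 ± 0.321 (adjusted p = 0.782) for Sub-fertile against High-fertile, -0.16 ± 0.321 (adjusted p = 0.852) for Infertile against High-fertile and 0.02 ± 0.321 (adjusted p = 0.998) for Infertile against Sub-fertile.

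CXCR4, carried by most leukocytes and by vessels, was at 51.5, 37.0, 54.9, 28.8 and 52.4 CPM in High-fertile, 45.3, 46.2, 26.3, 42.6 and 34.9 CPM in Sub-fertile and 35.9, 13.7, 38.3, 31.8 and 40.0 CPM in Infertile replicates 1 to 5. The lowest value, in Infertile replicate 2, was in the library with the most CXCL5. The edgeR log2 difference was -0.20 ± 0.265 (adjusted p = 0.696) for Sub-fertile against High-fertile, -0.49 ± 0.265 (adjusted p = 0.482) for Infertile against High-fertile and -0.29 ± 0.265 (adjusted p = 0.998) for Infertile against Sub-fertile, and the last 2 were -0.30 and -0.10 without Infertile replicate 2. CXCL14, an epithelial homeostatic chemokine, was between 3.73 CPM in Sub-fertile replicate 3 and 35.5 CPM in Infertile replicate 2. High-fertile heifers were the most alike in CXCL14, at 9.52 ± 1.08 CPM (SD, n = 5), against 10.7 ± 6.54 in Sub-fertile and 14.6 ± 12.4 in Infertile heifers. For edgeR the log2 difference of CXCL14 was 0.16 ± 0.516 (adjusted p = 0.881), 0.62 ± 0.517 (adjusted p = 0.613) and 0.46 ± 0.517 (adjusted p = 0.998) for Sub-fertile against High-fertile, Infertile against High-fertile and Infertile against Sub-fertile. The last 2 were -0.02 and -0.18 without Infertile replicate 2. Within the 8-library set the values of CXCL14 were -1.29 ± 0.456 (edgeR adjusted p = 0.649), 0.09 ± 0.426 (adjusted p = 0.977) and 1.38 ± 0.505 (adjusted p = 0.894). The Sub-fertile against High-fertile difference thus had the opposite sign there, between Sub-fertile replicates 3 and 4 and High-fertile replicates 2 to 5.

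CX3CL1 and CXCL16 are the chemokines made as membrane-anchored proteins that both attract and tether leukocytes. CX3CL1, or fractalkine, measured 56.5, 51.7, 71.0, 55.7 and 84.2 CPM in High-fertile, 43.8, 43.3, 37.2, 60.6 and 43.9 CPM in Sub-fertile and 54.0, 56.7, 28.0, 71.1 and 46.0 CPM in Infertile replicates 1 to 5. All 5 High-fertile heifers were above 4 of the 5 Sub-fertile heifers, and Sub-fertile replicate 4 lay within the High-fertile range. The means were 63.8 ± 13.6 CPM in High-fertile and 45.8 ± 8.73 CPM in Sub-fertile heifers (SD, n = 5). In the edgeR fit its log2 difference was -0.48 ± 0.217 (adjusted p = 0.360) for Sub-fertile against High-fertile, and from -0.60 to -0.36 with 1 library left out. For Infertile against High-fertile it was -0.32 ± 0.216 (adjusted p = 0.547) and for Infertile against Sub-fertile 0.16 ± 0.216 (adjusted p = 0.998). In the 8 libraries of the largest technical set the Sub-fertile against High-fertile value was -0.43 ± 0.272 (adjusted p = 0.715), and with technical set added to the model it was -0.22 ± 0.236 (adjusted p = 1). Of the 22 endothelial and lymphatic markers, vessel endothelium being a known source of CX3CL1, 12 were highest in High-fertile replicate 5. Their summed CPM was 1340 to 2350 in High-fertile, 1170 to 1630 in Sub-fertile and 1110 to 1650 in Infertile heifers, and their part in the CX3CL1 values was not tested.

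CX3CR1, the receptor of CX3CL1 on monocytes, natural killer cells and T cells, was at 7.57 to 14.3 CPM, with means of 11.4 ± 2.36, 9.62 ± 1.68 and 11.3 ± 2.22 CPM in High-fertile, Sub-fertile and Infertile heifers. CXCL16 was at 42.9, 30.2, 42.2, 19.5 and 46.8 CPM in High-fertile, 30.2, 27.6, 27.0, 32.5 and 24.5 CPM in Sub-fertile and 19.3, 34.9, 24.8, 33.6 and 29.2 CPM in Infertile replicates 1 to 5. High-fertile replicates 1, 3 and 5 were the 3 highest libraries, and High-fertile replicate 4 was the second lowest of the 15. Fitted by edgeR, its log2 difference was -0.36 ± 0.219 (adjusted p = 0.406) for Sub-fertile against High-fertile, -0.36 ± 0.219 (adjusted p = 0.516) for Infertile against High-fertile and 0.00 ± 0.218 (adjusted p = 1) for Infertile against Sub-fertile. CXCR6, the receptor of CXCL16 on resident T and natural killer cells, was at 3.13 to 5.90 CPM, with an Infertile against Sub-fertile difference of 0.42 ± 0.206 (edgeR adjusted p = 0.998).

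CCL14 and CCL16 are CC chemokines made without induction and lie side by side in the cattle annotation. CCL14, a ligand of CCR1 found in plasma, was at 47.4, 40.0, 33.9, 29.9 and 54.8 CPM in High-fertile, 13.6, 39.6, 43.2, 45.6 and 39.5 CPM in Sub-fertile and 35.0, 33.7, 12, 26.0 and 13.9 CPM in Infertile replicates 1 to 5. In 3 libraries it lay between 12 and 13.9 CPM, 1 Sub-fertile and 2 Infertile, and all other libraries were at 26.0 CPM or more. The edgeR log2 difference for Infertile against High-fertile was -0.77 ± 0.344 (adjusted p = 0.450), and from -0.95 to -0.60 with 1 library left out. These 3 low libraries, Sub-fertile replicate 1 and Infertile replicates 3 and 5, all belong to the technical set of 5 libraries. With class in the model, CCL14 differed between that set and the set of 8 by -0.85 ± 0.290 (edgeR adjusted p = 0.0420). It was the only member past the threshold there, 1 of 43 (2.33%), against 30.7% of all tested genes. Within the 8-library set the Infertile against High-fertile value was -0.39 ± 0.251 (adjusted p = 0.903), and with technical set added to the model it was -0.54 ± 0.291 (adjusted p = 0.682). The 5-library set holds 3 Sub-fertile, 2 Infertile and no High-fertile libraries, so no comparison with High-fertile heifers can be made within it. CCL16 was steadier, at 2.66 to 8.53 CPM.

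The mucosal chemokines CCL20, CCL25 and CCL28 attract lymphocytes and antibody-producing cells to epithelium, and the receptors CCR6 and CCR10 are grouped with them. CCL27 was added to the group because it shares CCR10 with CCL28. CCL25, known from small intestine and thymus, was at 7.13 to 11.5 CPM with class means of 8.99 ± 0.699, 8.39 ± 0.884 and 9.05 ± 1.55 CPM. CCL28 was at 0.287 to 2.14 CPM, with the 3 lowest values in High-fertile replicate 5 and Sub-fertile replicates 1 and 2. CCL27 was at 1.16 to 3.31 CPM, CCL20 at 0 to 0.463 CPM, CCR6, the receptor of CCL20, at 0.364 to 1.40 CPM and CCR10, the receptor of CCL27 and CCL28, at 1.04 to 1.95 CPM. No member of this group had an unadjusted p under 0.05 in any comparison.

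CCR7 and CCL21 guide dendritic cells and naive lymphocytes into lymphatic vessels and lymph nodes. CCR7 was at 2.15, 0.278, 0.214, 0.458 and 0.610 CPM in High-fertile, 0.131, 0.232, 0.592, 0.197 and 0.137 CPM in Sub-fertile and 0.293, 0.617, 0.408, 0.234 and 0.511 CPM in Infertile replicates 1 to 5. High-fertile replicate 1 stood 3.48 times above the next library, and the other High-fertile values overlapped both classes. The edgeR log2 difference was -1.51 ± 0.626 (adjusted p = 0.360) for Sub-fertile against High-fertile, -0.84 ± 0.609 (adjusted p = 0.569) for Infertile against High-fertile and 0.67 ± 0.627 (adjusted p = 0.998) for Infertile against Sub-fertile. Without High-fertile replicate 1 the first was -0.59 and the second 0.08, and within the 8-library technical set the first was -0.01 ± 0.610. In High-fertile replicate 1, 12 of the 18 B and plasma cell markers in the table were at their highest, with PAX5, a B cell transcription factor, at 3.86 CPM. The list summed to 110 CPM in that library. By class it summed to 71.1 to 229 CPM in High-fertile, 16.3 to 28.0 in Sub-fertile and 23.9 to 255 CPM in Infertile heifers, and its part in the CCR7 values was not tested. Over the 15 libraries CCR7 and the mean log2 CPM of these markers had Pearson r = 0.658 (permutation p = 0.0150, adjusted 0.0541) and Spearman rho = 0.357 (p = 0.190, adjusted 0.427). Without High-fertile replicate 1 and Infertile replicate 2 r was 0.177, and within the 8-library set it was 0.0896.

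CCL21, made by lymphatic endothelium, was at 0 in some heifers and above 4 CPM in others. It was at 4.97, 3.19, 0.643, 1.47 and 0.0407 CPM in High-fertile, 0, 1.20, 0.182, 0.393 and 0.524 CPM in Sub-fertile and 4.67, 0.170, 0.770, 0 and 0 CPM in Infertile replicates 1 to 5. High-fertile replicate 1 and Infertile replicate 1 were highest, and every class also held a heifer at or below 0.0407 CPM. In the edgeR fit its log2 difference was -2.15 ± 1.39 (adjusted p = 0.428) for Sub-fertile against High-fertile, -0.87 ± 1.33 (adjusted p = 0.796) for Infertile against High-fertile and 1.28 ± 1.37 (adjusted p = 0.998) for Infertile against Sub-fertile. Without Infertile replicate 1 the last 2 were -3.11 and -0.97. The T cell subset genes were low, except CCR8. CCR8, a receptor of regulatory and tissue T cells, was at 3.04 to 8.64 CPM with a Sub-fertile against High-fertile difference of 0.36 ± 0.255 (edgeR adjusted p = 0.458). Its ligand CCL1 was at 0.143 to 1.03 CPM. CCL22 was at 0.0419 to 0.672 CPM and its receptor CCR4 at 0.0794 to 0.488 CPM.

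Genes that work with the chemokine system, listed by function and not by how they moved, held no gene past an adjusted p of 0.05. Their counts at an unadjusted p under 0.05 stand against all-gene shares of 6.58% higher and 7.14% lower in Sub-fertile against High-fertile, 7.14% and 3.89% in Infertile against High-fertile and 1.91% and 0.721% in Infertile against Sub-fertile. Of 8 tested atypical receptors and other chemokine-binding genes, 1 was lower at an unadjusted p under 0.05 in Sub-fertile against High-fertile, 2 were lower in Infertile against High-fertile and 1 was higher in Infertile against Sub-fertile. ACKR3, which scavenges CXCL12, had means of 38.2, 24.8 and 30.1 CPM in High-fertile, Sub-fertile and Infertile heifers and a Sub-fertile against High-fertile log2 difference of -0.62 ± 0.244 (edgeR adjusted p = 0.360). CMKLR1, the chemerin receptor, had an Infertile against High-fertile difference of -0.75 ± 0.343 (edgeR adjusted p = 0.450). RARRES2, the gene of chemerin, had means of 40.8, 26.3 and 31.5 CPM and a Sub-fertile against High-fertile difference of -0.64 ± 0.229 (edgeR adjusted p = 0.360), the only 1 of 4 tested ligands outside the name pattern under 0.05. GRO1, a neutrophil attractant, had an Infertile against High-fertile difference of -0.27 ± 0.347 (edgeR adjusted p = 0.747).

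Beside the same all-gene shares (13.7%, 11.0% and 2.63% in either direction), of 39 tested genes of chemokine receptor signalling 2 were higher and 6 lower at an unadjusted p under 0.05 in Sub-fertile against High-fertile, 2 higher and 5 lower in Infertile against High-fertile and none in Infertile against Sub-fertile. ARRB2, a beta-arrestin that ends receptor signalling, had a Sub-fertile against High-fertile log2 difference of -0.53 ± 0.151 (edgeR adjusted p = 0.360). WAS, an actin regulator of blood cells, had one of -0.92 ± 0.271 (edgeR adjusted p = 0.360). Of 15 genes of chemokine processing and presentation, 1 was under 0.05 in any comparison, TPST2, a tyrosine sulfotransferase that modifies chemokine receptors, at -0.33 ± 0.134 for Infertile against High-fertile (edgeR adjusted p = 0.439). SDC1, a heparan sulfate proteoglycan that holds chemokines, had an Infertile against Sub-fertile difference of 0.56 ± 0.364 (edgeR adjusted p = 0.998). Of 17 transcription factors and inducers of chemokines, 4 were lower in Sub-fertile against High-fertile (7.14% of all genes), 3 were lower in Infertile against High-fertile (3.89% of all genes) and none passed in Infertile against Sub-fertile. NFKB1 and IRF9, which drive inflammatory and interferon-induced genes, had Infertile against High-fertile differences of -0.22 ± 0.0850 (edgeR adjusted p = 0.439) and -0.79 ± 0.304 (adjusted p = 0.439).

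Across the 15 heifers, 18 relations were computed, 7 between a ligand and its receptor and 11 between a member and a marker list, with p values adjusted over the 18. No ligand and receptor pair passed, with Pearson r from -0.288 for CX3CL1 with CX3CR1 (permutation p = 0.300, rho -0.325) to 0.417 for CXCL10 with CXCR3 (p = 0.123, rho 0.236). CXCL12 with CXCR4 had r = 0.155 (p = 0.580, rho 0.143), and 4 relations with marker lists passed an adjusted p of 0.05.

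CXCR2 followed the neutrophil and eosinophil markers, with r = 0.840 (permutation p = 0.00021, adjusted 0.00378) and rho = 0.696 (p = 0.00502, adjusted 0.0389). Without High-fertile replicate 3 and Infertile replicate 2 it was 0.526 (permutation p = 0.0645, adjusted 0.297), so it rests in part on those heifers. Within the 8-library set it was 0.925 (exact permutation p = 0.00246, adjusted 0.0442). That set still holds High-fertile replicate 3, which at 4.48 CPM had its highest CXCR2. CXCL12 followed stromal and smooth muscle markers, with r = 0.722 (p = 0.00242, adjusted 0.0217) and rho = 0.682 (p = 0.00648, adjusted 0.0389). Without Sub-fertile replicate 3 and Infertile replicate 3 it was 0.738 (adjusted 0.0702), and it was 0.812 within the 8-library set (exact permutation p = 0.0120, adjusted 0.0828).

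CXCR3 and CCL5, both genes of T and natural killer cells, followed the markers of those cells. CXCR3 had r = 0.677 (p = 0.00401, adjusted 0.0217) and rho = 0.686 (p = 0.00603, adjusted 0.0389), and CCL5 had r = 0.690 (p = 0.00483, adjusted 0.0217) and rho = 0.607 (p = 0.0189, adjusted 0.0849). Without the 2 libraries farthest from the median, Sub-fertile replicate 4 in both, with Sub-fertile replicate 1 for CXCR3 and High-fertile replicate 1 for CCL5, r was 0.459 (adjusted 0.297) and 0.457 (adjusted 0.297), so neither relation passed. Within the 8-library set r was 0.775 and 0.787 (exact permutation p = 0.0230 and 0.0217, both adjusted 0.0828). That set still holds Sub-fertile replicate 4, the library lowest in both genes. The other sets held too few libraries for a value.

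**Figure D5:**
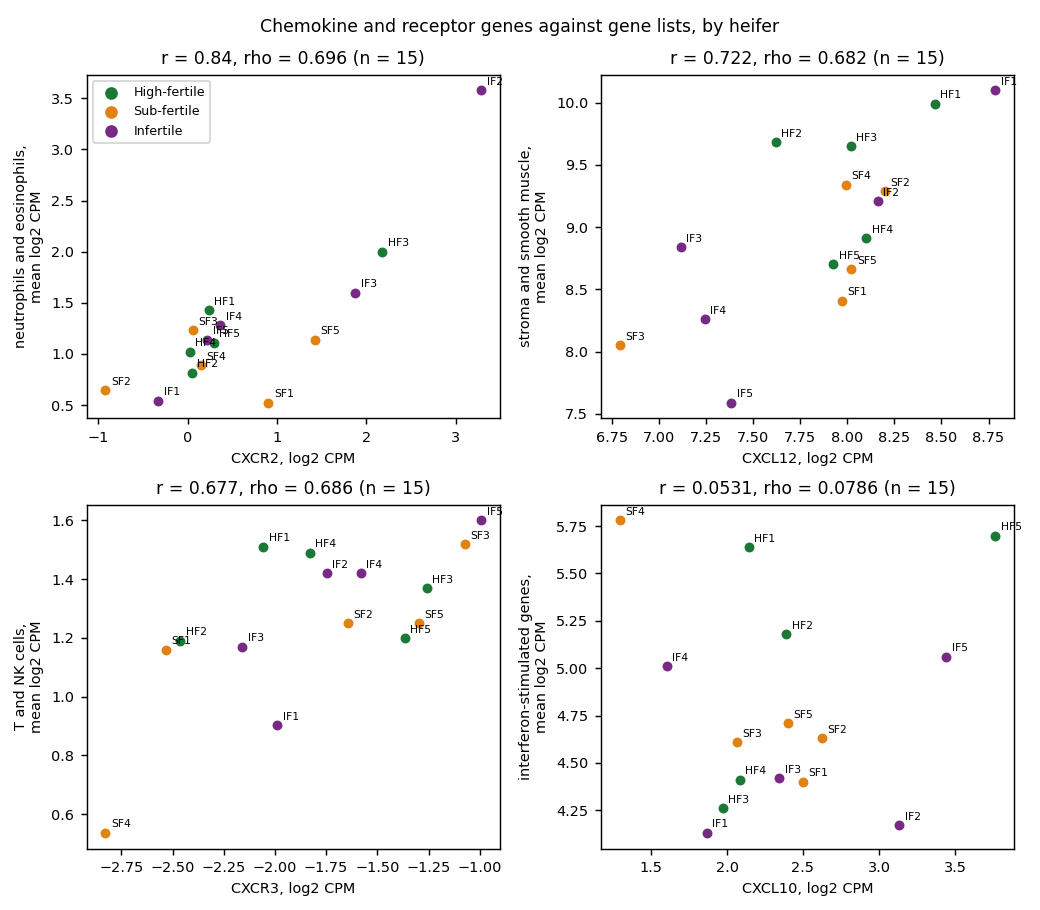
Log2 CPM of CXCR2, CXCL12, CXCR3 and CXCL10 (horizontal axes) against the mean log2 CPM of a marker list (vertical axes), with 1 labelled point per heifer coloured by class. Pearson r is 0.840, 0.722 and 0.677 for the neutrophil, stromal and T and NK cell lists and 0.0531 for CXCL10 with interferon-stimulated genes, where SF4 has the highest list mean and the lowest CXCL10.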

How the data were processed

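RNA from 15 endometrial biopsies was purified on RNeasy columns and turned into Illumina TruSeq stranded mRNA libraries, per the protocols in the labels. The deposited table holds, for each heifer, raw counts for every gene beside FPKM. FastQC, Subread, featureCounts, edgeR and build UMD3.1 are named in the submitters' processing notes, while the sources used here give no versions, strand setting or rule for multi-mapping reads. The authors' FPKM values were used only to compare levels between genes and were not tested.

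Counts were analysed with edgeR 4.0.16 in R 4.3.3. Entries were kept with filterByExpr by class (19962 of 32671, with 4555 at 0 in every library), scaled by TMM and fitted in 1 quasi-likelihood model of class over 15 libraries (robust, 12 residual degrees of freedom). Two-sided p values were adjusted by Benjamini-Hochberg over all tested genes, threshold 0.05. Every p of a gene is from edgeR unless another test is named. Each library is 1 heifer. Correlations used log2 CPM (prior count 2) with 100000 permutations, or all permutations within 8 libraries. Scripts were tested on simulated data.

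The labels give no batch, and whether the sets called technical reflect a technical factor was not tested. Clustering the 372 tested pseudogenes and ribosomal RNA genes split the libraries into technical sets of 8, 5 (Sub-fertile replicates 1, 2 and 5, Infertile replicates 3 and 5) and 2 (High-fertile replicate 1, Infertile replicate 2). The largest Spearman correlation between libraries was 0.979, and no library was a copy of another.

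The genes and marker lists were chosen with earlier results of these data known. Fold changes are printed for the 6 members with the smallest p in each comparison and 15 chemokine system genes picked with them, and for the 2 genes with the smallest p in each of 5 pathway lists. Alternatives were other scalings, filters and tools (DESeq2 1.42.0, limma 3.58.1), the technical sets and each library left out. All 51 names matched the ARS-UCD2.0 annotation, used for names and neighbours alone. Gene starts in that annotation set the order of neighbours, and no sequences were used. Values of 1 receptor are not reported here, though it is in the counts over all members.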

Additional observations from a re-analysis of the deposited data

Results flagged for a closer look

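Within each class of 5 heifers, the log2 CPM of each of 42 tested members was checked for a heifer far from the other 4, by the gap to its nearest neighbour over the whole range. This picked out 11 of 126 groups (8.73%). The critical value used is set so that about 1 in 20 groups is picked by chance, the 126 groups share the same 15 libraries, and the difference between these shares was not tested.

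In High-fertile heifers, CXCR2 was at 4.48 CPM in replicate 3 (others 0.975 to 1.18), and replicate 5 held CXCL9 at 2.75 CPM (others 1.00 to 1.25) and CXCL10 at 13.6 CPM (others 3.88 to 5.2). In Sub-fertile heifers, CCL14 was at 13.6 CPM in replicate 1 (others 39.5 to 45.6) and CCR6 at 0.364 CPM in replicate 5 (others 0.836 to 0.973). Sub-fertile replicate 2 held CCR3 at 0.139 CPM (others 0.313 to 0.387). Sub-fertile replicate 3 held CXCL12 at 111 CPM (others 251 to 294) and CCL27 at 1.16 CPM (others 2.08 to 2.40).

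In Infertile heifers, replicate 2 held CXCL8 at 3.28 CPM (others 0.195 to 0.398) and CXCR4 at 13.7 CPM (others 31.8 to 40.0). CXCL3 was at 45.5 CPM in Infertile replicate 4 (others 35.4 to 37.6).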

How the results depend on the processing

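No paired analysis was possible because the labels give no replicate numbers. No member passed an adjusted p of 0.05 under any alternative, except CX3CL1 (-0.54, adjusted p = 0.0275) and CCR10 (-0.49, adjusted p = 0.0316), 2 members in Sub-fertile against High-fertile by limma-voom with sample quality weights, which called 7162 genes in all there. The number of members at an unadjusted p under 0.05 in Sub-fertile against High-fertile, 2, was 1 with upper quartile scaling, 1 with a filter of 1 CPM in 5 libraries, 0 by limma-voom, 4 with quality weights and 1 with the technical set as a covariate. In Infertile against High-fertile, 3 became 1 in the 8-library set and 1 without the 2-library set. In Infertile against Sub-fertile, 5 became 2 with the stricter filter, 0 by limma-voom, 3 with quality weights, 1 with the covariate, 2 in the 8-library set and 0 without the 2-library set. With 1 library left out these counts ran from 0 (without Sub-fertile replicate 1) to 3, from 1 (without Infertile replicate 2) to 6 (without High-fertile replicate 3) and from 0 (without Infertile replicate 2) to 7. All-gene counts at an adjusted p under 0.05 were 19, 33 and 10 by DESeq2. The share of all genes at an unadjusted p under 0.05 was not computed under these alternatives. The member counts therefore cannot be read as more or fewer than in the whole table. The cause of these shifts was not tested.

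Of 728 values of 53 named differences under other settings, 53 changed sign, and 32 of 795 with 1 library left out. For Sub-fertile against High-fertile these log2 differences were, by limma-voom, CXCL14 -0.17, and with quality weights CXCL10 0.06, CXCL12 0.04 and CXCL11 0.04. With the covariate they were CXCL12 0.01, CXCL14 -0.28, CXCL9 -0.26 and CCL2 -0.15, and in the 8-library set CCL8 0.28, CXCL14 -1.29, CXCL9 -0.29 and CCL2 -0.25. For Infertile against High-fertile they were CCL8 0.06 by limma-voom, and CCL26 -0.13, CXCL8 -0.63, CXCL14 -0.01 and CCL8 0.21 with weights. With the covariate they were CXCL8 -0.25, CXCL9 -0.31 and CCL8 0.07. In the 8-library set they were CCL26 -0.04, CXCL11 -0.20, CXCL8 -0.72, CCL21 0.80, CXCL12 0.28 and CXCL9 -1.08, and without the 2-library set CXCL8 -0.70, CXCL14 -0.01, CCL21 0.03 and CXCL9 -0.13. For Infertile against Sub-fertile they were CXCL12 -0.01 with library size scaling, CCL21 -0.65, CXCL9 -0.03 and CXCL12 -0.06 by limma-voom, and CXCL8 -0.57, CXCL10 -0.09, CCL21 -1.65, CXCL14 -0.53, CXCL9 -0.20 and CXCL12 -0.51 with weights. With the covariate they were CXCL8 -0.05, CCL5 -0.04, CXCL9 -0.05 and CXCL12 -0.13. In the 8-library set they were CXCR1 -0.43, CCR7 -0.56, CCL8 -0.71, CCL5 -0.08 and CXCL9 -0.79, and without the 2-library set CXCL8 -0.52, CXCL14 -0.18, CXCL9 -0.18 and CXCL12 -0.06. With 1 library left out, the log2 differences that changed sign in any of these fits had the following lowest and highest values. For Sub-fertile against High-fertile these were CCL2 from -0.13 to 0.16, CCL8 from -0.38 to 0.23, CXCL10 from -0.54 to 0.09, CXCL11 from -0.45 to 0.35, CXCL14 from -0.11 to 0.38, CXCL8 from -0.43 to 0.10 and CXCL9 from -0.06 to 0.46. For Infertile against High-fertile these were CCL26 from -0.22 to 1.73, CCL8 from -0.22 to 0.34, CCR7 from -1.07 to 0.08, CXCL14 from -0.02 to 0.86, CXCL8 from -0.72 to 1.16 and CXCL9 from -0.07 to 0.51. For Infertile against Sub-fertile these were CCL21 from -0.97 to 2.0, CCL5 from -0.08 to 0.43, CCL8 from -0.13 to 0.33, CXCL12 from -0.34 to 0.16, CXCL14 from -0.18 to 0.73, CXCL8 from -0.52 to 1.33 and CXCL9 from -0.18 to 0.26. The relation of CCL20 with CCR6 (r = 0.226) was -0.243 without the 2 farthest libraries, and those of CXCL9, CXCL10 and CXCL11 with interferon-stimulated genes changed sign as 0.200 and 0.188, -0.481 and 0.0870. Within the 8-library set CXCL12, CXCR3 and CCL5 kept r of 0.812, 0.775 and 0.787 but not an adjusted p under 0.05, and without the 2 farthest libraries the 4 relations that passed had r of 0.526, 0.738, 0.459 and 0.457. CCL20 had 0 to 20 counts in a library, which limits its precision.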

Other observations

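Neighbouring genes did not always share their heifers. CCL22, CX3CL1 and CCL17 stand next to each other in the cattle annotation, and CX3CL1 was highest in High-fertile replicate 5, CCL22 in Sub-fertile replicate 2 and CCL17 in Sub-fertile replicate 3. CXCL2 and CXCL3 are neighbours too, yet CXCL2 was highest in Infertile replicate 2 and CXCL3 in High-fertile replicate 3. CXCR1 and CXCR2 were both highest in Infertile replicate 2, as were CCL24 and CCL26.

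With class in the model, 2 members differed between the 2-library and the 8-library technical set at an adjusted p under 0.05, CXCL5 by 4.09 ± 0.881 (edgeR adjusted p = 0.0163) and CXCL2 by 1.89 ± 0.492 (edgeR adjusted p = 0.0491) on the log2 scale. That is 4.65% of members, against 4.56% of all tested genes. The 2 libraries were not alike in CXCL5, at 2.10 CPM in High-fertile replicate 1 and 60.7 CPM in Infertile replicate 2.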
